A study of Rattus norvegicus with 18 samples.

Results

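The genes described here code for transporters that carry ions, sugars, organic acids, fatty acids and zinc across membranes. They were chosen by symbol: solute carriers of the families Slc2, Slc4, Slc8, Slc9, Slc12, Slc13, Slc16, Slc20, Slc22, Slc24, Slc27, Slc30 and Slc39. The rule found 105 probes of 101 gene symbols among the 22523 probes of the array. A probe was called detected on an array at a detection p-value of at most 0.02, and 55 of the 105 transporter probes (53 symbols, 52.4%) were detected on at least 1 of the 18 arrays, against 49.2% of all probes. The rule also takes in 3 regulator or adaptor genes that carry a transporter's symbol without being transporters, Slc4a1ap, Slc9a3r1 and Slc9a3r2, of which Slc4a1ap and Slc9a3r1 were detected.

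RNA came from primary cortical neurons of embryonic rats, a bulk culture that can also hold glia. On day 1 of culture the cells were treated for 6 hours with lentivirus made with the pLKO.1 vector, which carried an shRNA against CHD5, a chromatin remodeling ATPase, or the scramble control shRNA. RNA was taken on days 5, 9 and 12, giving 6 groups of 3 arrays (replicates a, b and c), each called here by its day and as control or CHD5 shRNA. Both arms of each day had been infected, and no uninfected group was used here. Chd5 itself was not analysed here, so the targeted gene gives no check of the labels. No label says whether the replicates were separate cultures, so p-values measure the spread between these samples, which may be technical. In bulk RNA, fewer cells of a type and less RNA per cell cannot be told apart.

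Mean raw signal per array ran from 400.2 to 789, with 8360 to 9931 probes detected, with the exception of control replicate b of day 9, where the mean was 134.8 and 7047 probes were detected. Transporter values that this array moves most are given with and without it. Levels below are normalized log2 signals, that is log2 signals brought to the same mean and SD on every array, and a difference of 1 is a doubling. Levels of different probes cannot be set against each other, so only differences of the same probe are compared. The test was limma over all 11079 detected probes, with a call at an adjusted p under 0.05. Beside it, an exact permutation test of 3 arrays against 3 cannot go below p = 0.1, which is the value of every gene whose groups did not overlap.

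Solute carriers work as cotransporters, exchangers or facilitators rather than as pumps. In brain they set chloride and pH (Slc4, Slc9, Slc12), clear calcium (Slc8, Slc24), bring in glucose (Slc2), pass lactate between cells (Slc16), supply phosphate (Slc20), dicarboxylates (Slc13), organic cations and carnitine (Slc22) and fatty acids (Slc27), and hold zinc (Slc30 out of the cytosol, Slc39 into it). Some mark a cell type, such as Slc12a5 in neurons and Slc4a4 in astrocytes.

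The probes are single-strand oligonucleotides of 50 bases, and every level below is the brightness of such a probe. The first 30 bases are printed for the genes on which the results turn, together with both probes of Slc16a6, which did not give the same result.
Slc13a3: gctgacaccagaggtggaaccatcacttcc
Slc27a5: gtctgatgccagatgtgtaccaggctgtgt
Slc4a4: gatagcgacaacgacgattctgactgccca
Slc12a5: gcctggtagtgagaagagtgttgcttttgt
Slc39a12: ggactgtacattggtctctcggtgtctgct
Slc16a3: gtgggaggatcaccaaagggcctgtctcta
Slc16a6, brighter probe: tgtgccagaatcctcactcaggtgaaaacc
Slc16a6, dimmer probe: ctggcccacgccctaaggggttaaaccttt

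Slc13a3 and Slc27a5 had the largest falls under the CHD5 shRNA, so the 250 bases before their start sites are shown as RefSeq gives them for the GRCr8 build. Capitals mark the E-box letters CACGTG and the nuclear factor I (NFI) core letters TTGGC, each searched on both strands.
Slc13a3, chr3:174623894-174624143, minus strand: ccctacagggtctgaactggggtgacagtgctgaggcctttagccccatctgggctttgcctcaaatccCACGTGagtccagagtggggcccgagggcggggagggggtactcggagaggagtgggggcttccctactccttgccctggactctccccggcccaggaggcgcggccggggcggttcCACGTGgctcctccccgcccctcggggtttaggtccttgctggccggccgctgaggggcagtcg
Slc27a5, chr1:82699336-82699585, minus strand: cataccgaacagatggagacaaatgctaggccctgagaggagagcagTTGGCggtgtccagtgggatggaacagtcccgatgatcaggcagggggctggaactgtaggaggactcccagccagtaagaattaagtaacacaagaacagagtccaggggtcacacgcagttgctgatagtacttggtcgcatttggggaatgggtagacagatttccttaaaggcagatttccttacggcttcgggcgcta
The E-box letters stood at 2 places before Slc13a3, and 5.59% of 33469 rat promoters of the same length held them at least once. The NFI core letters stood at 1 place before Slc27a5, and 40.3% of promoters held it. The full NFI palindrome, which is this core and its reverse complement either side of a spacer, in 0.0359% of promoters, was not among the letters of either. Promoters were listed for 9 of the 11 transporters called below. Such matches describe the letters only.

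The detected share differed widely by family. Both Slc20 probes, the phosphate cotransporters, were detected on all arrays, and all 3 Slc24 probes on some or all. Detection was 8 of 11 probes for Slc4, 6 of 8 for Slc30, 4 of 5 for Slc27, 6 of 11 for Slc16, 8 of 15 for Slc39, 5 of 10 for Slc2, 5 of 12 for Slc9, 4 of 15 for Slc22, 2 of 7 for Slc12, 1 of 3 for Slc8 and 1 of 3 for Slc13. In all, 26 probes were detected on every array and 29 on some. The 50 undetected probes included several with a known place in brain: Slc2a1, the glucose transporter of the blood-brain barrier, Slc8a1 and Slc8a2, plasma membrane sodium-calcium exchangers, and Slc30a3, which loads zinc into synaptic vesicles. Their probes gave no value above background, which is a statement about the probe and not about the gene. Slc12a2, Slc16a7 and Slc24a2 were not analysed here.

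**Figure D1:**
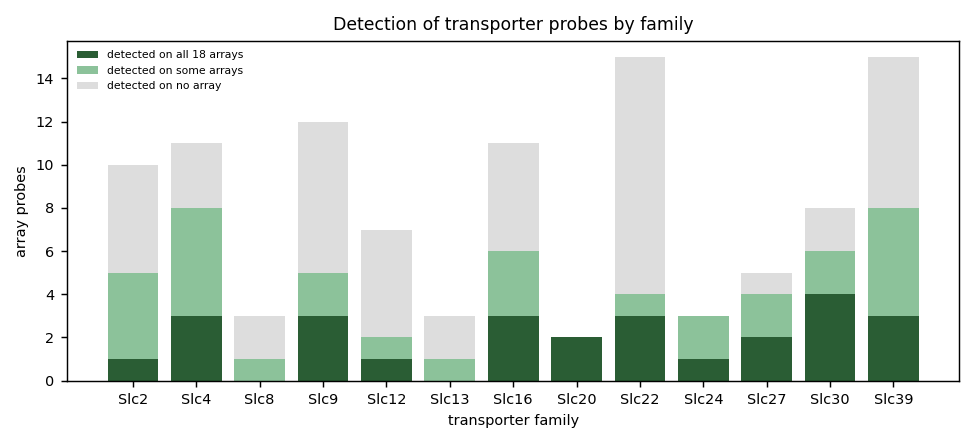
Number of array probes per transporter family (bar height), split into those detected on all 18 arrays, on some arrays and on none. All Slc20 and Slc24 probes were detected at least once, against 4 of 15 for Slc22.

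CHD5 shRNA was first compared with control on each day, which asks how these genes differ between the shRNA arms. The arrays used the same CHD5 shRNA throughout, so its off-target effects cannot be told apart from depletion of CHD5. On day 5 none of the 55 transporter probes was called, with a background of 0.126% of all tested probes called lower and 0.0451% called higher in limma's test. At an unadjusted p under 0.05 there were 5 transporters, and the smallest adjusted p was 0.557, for Slc22a3, an organic cation transporter that takes up monoamines. The shRNA and control arrays did not overlap for 5 transporters (9.09%), against 11% of all probes. Differences ran from -0.44 to 0.27.

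On day 9, 4 transporters were lower and 1 was higher, and across all probes 2.25% were called lower and 3.65% higher. Those that fell were Slc4a2 and Slc4a4, both bicarbonate carriers, Slc13a3 and Slc27a5. The transporter that rose was Slc12a5. The arrays did not overlap for 13 transporters (23.6%), against 20.6% of all probes. On day 12, 9 transporters were lower and 1 was higher, against 3.24% lower and 2.23% higher over all probes. The shares are 16.4% and 1.82% of the 55. The lower calls of both days include Slc27a5, which passed the detection filter only through control arrays. Groups did not overlap for 25 transporters (45.5%), against 38.2% of all probes. The median difference over the 55 transporters was -0.03 on day 12, and over all probes 0.01. Of the 55, 31 lay below 0 and 24 above. Under other scalings the day 9 split of lower to higher calls was 7 to 2 with quantile normalization (4.63% and 4.79% of all probes), 2 to 0 with median centring (0.316% and 0.271%) and 4 to 2 with the neqc method (3.75% and 4.09%). The day 12 split was 11 to 3 with quantile normalization (4.95% and 3.87% of all probes), 10 to 3 with neqc (4.23% and 3.2%) and 4 to 0 with median centring (1.02% and 0.442%). Without any 1 of the 6 day 12 arrays, the day 12 count was 4 to 6 in place of 10, and Slc13a3, Slc27a5, Slc4a4 and Slc16a3 were called in each of these fits.

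**Figure D2:**
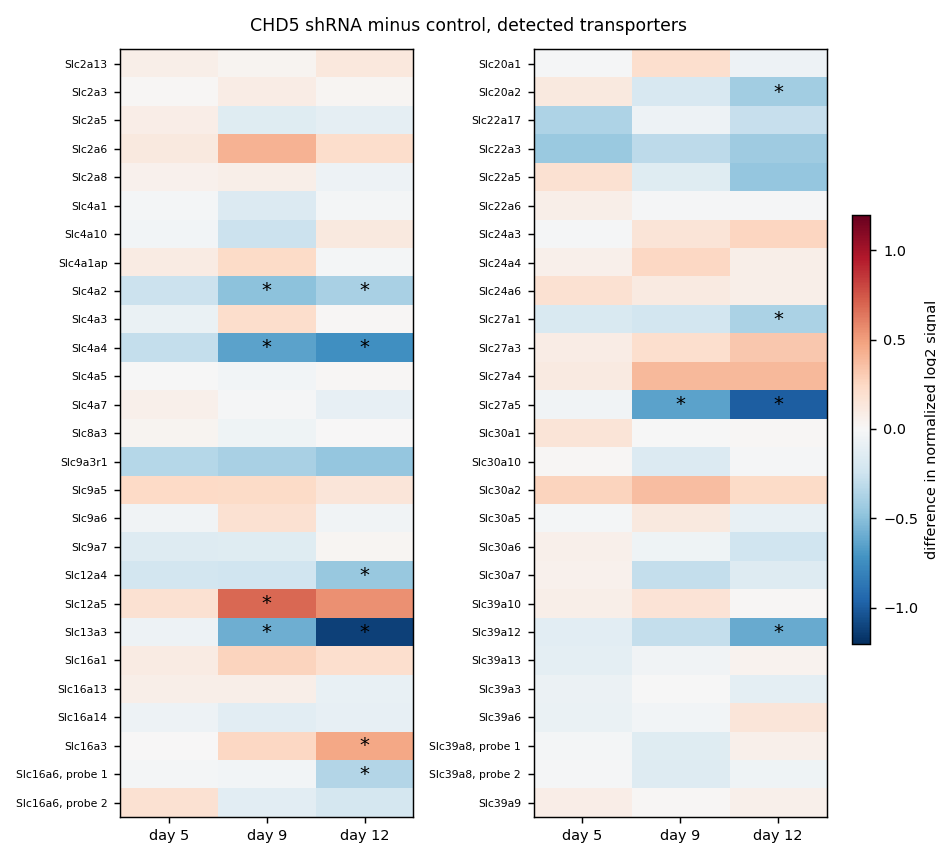
Difference in normalized log2 signal, CHD5 shRNA minus control, for the detected transporter probes described here (rows, ordered by family) on days 5, 9 and 12 (columns), with blue for lower and red for higher and an asterisk for an adjusted p under 0.05. No asterisk stands in the day 5 column, 5 stand on day 9 and 10 on day 12.

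Slc13a3, the sodium-dependent dicarboxylate cotransporter that takes up succinate and related acids, had the largest difference. On day 12 its control levels were 8.10, 7.99 and 7.91, and those of the CHD5 shRNA arrays 6.82, 6.87 and 6.95. The groups lay far apart, and the difference was -1.12 (SE 0.087, adjusted p = 5.73e-07 in limma), with detection on all 6 arrays. On day 9 control levels were 6.95, 6.88 and 6.98 and CHD5 shRNA levels 6.33, 6.39 and 6.35, a difference of -0.58 (adjusted p = 9.69e-04, limma). No CHD5 shRNA array detected the probe on day 9 while control arrays a and c did, so the level was at least 1.11-fold higher in control, a bound set by background. The array that missed it in control was the dim replicate b array, on which the lowest detected level was 7.32. Its value is part of the bound. On day 5 no array of either arm detected it.

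Slc27a5, a bile acyl-CoA synthetase known chiefly from liver, was also lower with the CHD5 shRNA on days 9 and 12. Control levels were 7.24, 6.96 and 7.17 on day 12 and CHD5 shRNA levels 6.22, 6.06 and 6.11. The difference was -0.99 (SE 0.099, adjusted p = 1.64e-05, limma). The CHD5 shRNA arrays of every day were below detection for this probe, so on day 12 the level was at least 1.28-fold higher in control. No day 5 array detected it either. It therefore passed the detection filter only through the control arrays of days 9 and 12, where it was high, and its p-values are not independent of that choice. Without the filter it was called lower on both days too. On day 9 the difference was -0.64 (adjusted p = 0.00128, limma) and the bound at least 1.17-fold. That bound includes the dim control replicate b array, where Slc27a5 was not detected (7.04, against a lowest detected level of 7.32). Bounds are smaller than fitted differences because they stop at the lowest signal of any detected probe of the array.

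Slc4a4, the electrogenic sodium-bicarbonate cotransporter, stood on day 12 at 8.14, 7.76 and 7.99 in control and at 7.32, 7.21 and 7.15 with the CHD5 shRNA. The groups did not overlap, and the difference was -0.74 (SE 0.15, adjusted p = 0.00596, limma). On day 9 it was -0.64 (adjusted p = 0.0175, limma). Slc4a2, a chloride-bicarbonate exchanger, had day 12 levels of 7.81, 7.74 and 7.77 in control and 7.37, 7.44 and 7.36 with the CHD5 shRNA. It fell by 0.39 on day 12 (adjusted p = 0.0237, limma) and by 0.49 on day 9 (adjusted p = 0.00738, limma), and it did not overlap between arms on day 5 either, where the difference of -0.26 was not called (adjusted p = 0.573). The other 6 probes of the Slc4 family, detected for Slc4a1, Slc4a1ap, Slc4a3, Slc4a5, Slc4a7 and Slc4a10, were not called on any day. Of the Slc9 exchangers and their adaptor none was called, and the adaptor Slc9a3r1 differed by -0.46 on day 12 (adjusted p = 0.111, limma).

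The detected potassium-chloride cotransporters moved in opposite directions. Slc12a5, the neuronal extruder that keeps chloride low, rose on day 9: control levels were 9.05, 8.11 and 8.89 and CHD5 shRNA levels 9.39, 9.29 and 9.44. The 8.11 is from the dim replicate b array. The difference was 0.69 (SE 0.17, adjusted p = 0.0238, limma) with that array and 0.41 without it (adjusted p = 0.0178, limma). On day 12 levels were 9.55, 9.37 and 9.39 in control and 9.98, 9.97 and 10.01 with the CHD5 shRNA, so that the groups did not overlap. The difference of 0.55 missed the threshold (adjusted p = 0.0721, limma), and without the dim array it was 0.56 (adjusted p = 3.85e-04), that array being part of the spread shared by all groups. Slc12a4, the broadly expressed cotransporter of the same kind, had day 12 levels of 7.57, 7.35 and 7.27 in control and 6.99, 6.87 and 6.96 with the CHD5 shRNA, a difference of -0.46 (adjusted p = 0.0291, limma).

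The monocarboxylate family split as well. Slc16a3, a lactate exporter of glycolytic cells, was the gene that rose on day 12: its control levels were 6.41, 6.40 and 6.50, none detected, and its CHD5 shRNA levels 7.01, 6.82 and 6.88, all detected. The fitted difference was 0.47 (SE 0.090, adjusted p = 0.00442, limma), and the level was at least 1.12-fold higher with the CHD5 shRNA. Slc16a6 fell by 0.36 on day 12 by its brighter probe (adjusted p = 0.0349, limma), with 7.60, 7.71 and 7.64 in control against 7.21, 7.36 and 7.31. By its dimmer probe the difference was -0.22 and was not called (adjusted p = 0.353), so the probes had the same sign but not the same call. Slc16a1, the main lactate and ketone body carrier of glia and endothelium, differed by 0.20 on day 12 and was not called (adjusted p = 0.581).

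Slc39a12, a zinc importer enriched in brain, fell on day 12: levels were 9.15, 8.89 and 8.88 in control and 8.45, 8.21 and 8.45 with the CHD5 shRNA. The difference was -0.60 (SE 0.13, adjusted p = 0.00839, limma). It was the single call among 14 detected zinc transporter probes. Slc39a10, a zinc importer widely expressed in neurons, differed by 0.02. Slc27a1, a fatty acid transport protein, fell by 0.38 (adjusted p = 0.0316, limma), from 8.81, 8.70 and 8.63 in control to 8.27, 8.43 and 8.30. The other fatty acid family members, Slc27a3 and Slc27a4, had differences of 0.32 and 0.39 on day 12, were not called (adjusted p = 0.222 and 0.192), and did not overlap between arms. Slc20a2, a phosphate cotransporter, fell by 0.42 (adjusted p = 0.046, limma), with levels of 9.78, 9.84 and 9.67 against 9.32, 9.38 and 9.32. The call was kept in 12 of 30 alternative settings, the fewest of the transporters called. Its paralog Slc20a1 differed by -0.06. None of the 5 Slc2 probes was called, and Slc2a3, the neuronal glucose transporter, differed by 0.02.

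Families without a call on day 12 were Slc2, Slc8, Slc9, Slc22, Slc24 and Slc30. All 4 detected Slc22 probes lay below 0 on day 12, with a median of -0.35 and a range from -0.46 to -0.01. The 3 Slc24 calcium exchanger probes lay above 0, from 0.07 to 0.26. The 6 Slc30 zinc exporters ran from -0.24 to 0.23 and the 5 Slc2 probes from -0.11 to 0.21. The 5 Slc9 probes had a median of -0.03 and ran from -0.46, for the adaptor Slc9a3r1, to 0.15.

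**Figure D3:**
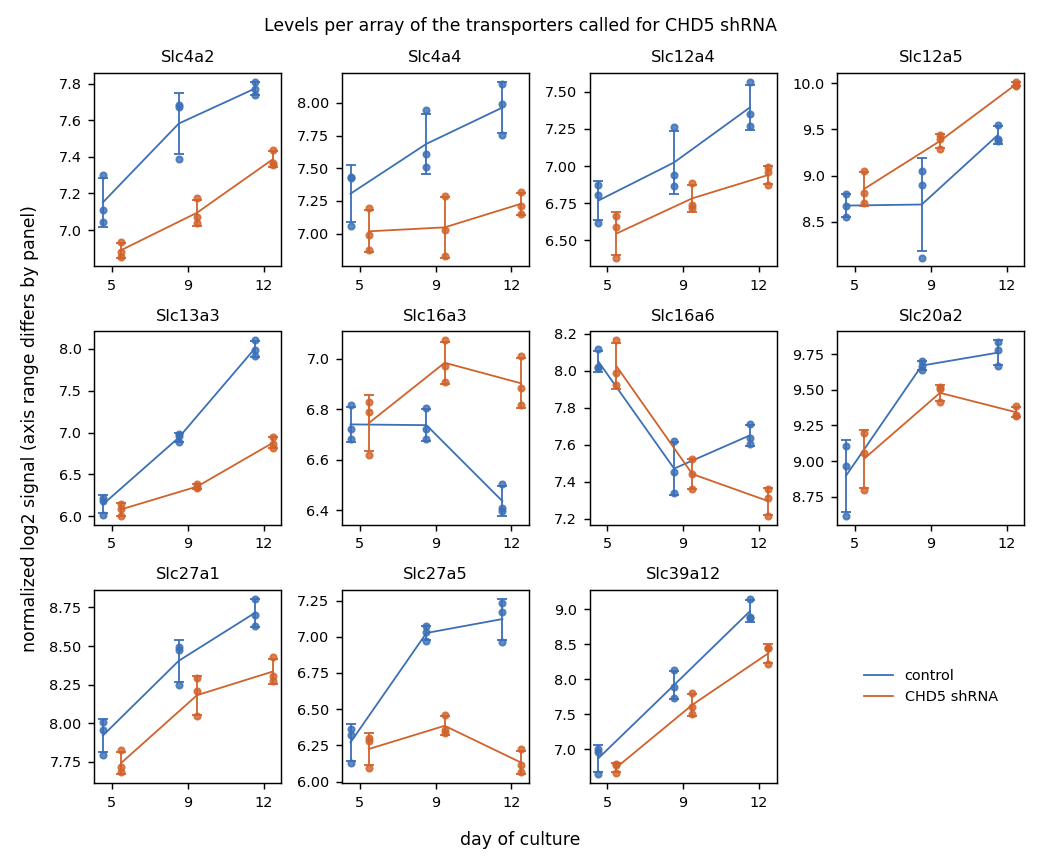
Normalized log2 signal (vertical axis, its range differing by panel) on days 5, 9 and 12 for the 11 transporters called in at least 1 comparison of CHD5 shRNA with control. Points are single arrays, lines join group means and bars are SD over 3 arrays, blue for control and orange for CHD5 shRNA, and only Slc12a5 and Slc16a3 lie above control on day 12.

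Without the dim day 9 control array, day 9 held 10 called transporters, 8 lower and 2 higher, while 6.67% of all probes were called lower and 4.1% higher. On day 12, 12 transporters were then lower and 3 higher, against 7.07% and 6.25% of all probes. Day 9 differences without it were -0.62 for Slc13a3, -0.65 for Slc27a5, -0.60 for Slc4a2 and -0.74 for Slc4a4, each still called in limma (adjusted p = 1.72e-04, 4.12e-04, 1.95e-04 and 0.00323). Slc22a3 came to -0.55 (adjusted p = 0.00863, limma) and Slc9a3r1 to -0.64 (adjusted p = 8.74e-04), both uncalled with it. Slc22a3 levels with the CHD5 shRNA lay below control on days 5 and 12 without overlap, at differences of -0.44 and -0.42.

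Astrocyte markers moved with these results. Of 16 listed, 13 were detected, and 0, 9 and 9 of them were called lower with the CHD5 shRNA on days 5, 9 and 12, with median differences of -0.20, -1.05 and -0.83. Day 9 calls and medians of this and the lists below include the dim array and are not given without it, so sizes on days 9 and 12 are not compared. The summed signal of the astrocyte markers ran from 61642.5 to 65857.5 on the day 12 control arrays and from 33024.8 to 34986.5 with the CHD5 shRNA. On day 9 it was 34810.9 and 42679.4 on the control arrays other than the dim one, which came to 138157 after scaling, against 20036.1 to 26014.5. The neuronal list was likewise at 234861 on the dim array and at 44470.9 and 52792.5 on the other day 9 control arrays. On day 5 the astrocyte sum ran from 9457.4 to 9991.31 against 7575.09 to 7891.08. The groups did not overlap on any day. The defining markers Gfap and Aqp4 were detected on 18 and 12 of the 18 arrays, so Aqp4 had no measured level on the rest. Of 9 detected oligodendrocyte lineage markers, 2 were lower on days 9 and 12. Of 4 fibroblast and pericyte markers, 2 were lower on each of those days. All 10 neuronal markers with a probe were detected; 0 were lower, and 1 (Tubb3) was higher on both days. Of 4 excitatory neuron markers 1 was higher on day 9, and of 10 interneuron markers 1 was lower on day 9 and 2 on day 12. Of 4 neural progenitor markers 1 was lower on day 9. No call was made among 10 proliferation, 2 microglial, 2 endothelial and 2 choroid plexus markers. Over all probes, 0.126% were called lower on day 5, 2.25% lower and 3.65% higher on day 9, and 3.24% lower and 2.23% higher on day 12. The part of the marker shifts in the transporter differences was not tested.

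**Figure D4:**
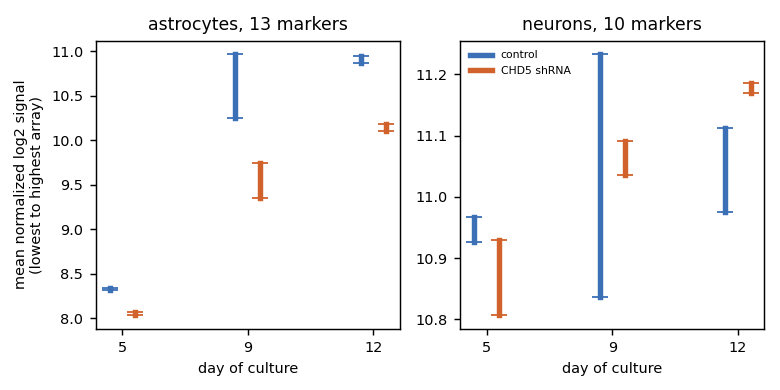
Mean normalized log2 signal of 13 astrocyte markers (left) and 10 neuronal markers (right) by day of culture; each bar spans the lowest to the highest of 3 arrays, blue for control and orange for CHD5 shRNA. The astrocyte bars of both arms climb from day 5 and the orange bar lies below the blue on every day. The day 9 control bars include the dim array.

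Culture time was then followed in control cells. From day 5 to day 12, 16 of the 55 transporters rose and 5 fell, against 11.1% of all probes called higher and 12.5% lower. From day 5 to day 9, 9 rose and 3 fell (9.18% and 12.8% of all probes), and without the dim array 14 rose and 2 fell (10.8% and 10.2%). Median centring gave 12 higher and 2 lower, against 674 and 868 of all 11079 probes. Quantile normalization and neqc each gave 11 higher and 6 lower, against 1254 and 1466 of all probes and 1141 and 1474. From day 9 to day 12, 4 rose and 1 fell (2.95% and 1.21% of all probes). With median centring 2 rose and 1 fell (119 and 44 of all 11079 probes), and without the dim array 5 and 1 (3.2% and 3.15%). The median change from day 5 to day 12 was 0.09 over the transporters and -0.02 over all probes.

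Slc39a12 rose furthest, from 7.00, 6.96 and 6.64 on day 5 to 8.14, 7.73 and 7.89 on day 9 and 9.15, 8.89 and 8.88 on day 12. Its change from day 5 to day 12 was 2.10 (SE 0.13, adjusted p = 1.03e-09, limma). Slc13a3 rose by 1.86 (adjusted p = 3.23e-11, limma) from arrays on which it was not detected, so the day 12 level was at least 2.68-fold higher. Slc9a3r1, a scaffold for membrane carriers, rose by 1.05 (adjusted p = 6.96e-05, limma), from 7.54, 7.39 and 7.22 to 8.53, 8.40 and 8.39. Slc20a2 rose by 0.86 (adjusted p = 2.53e-05, limma), from 8.62, 8.96 and 9.11 to 9.78, 9.84 and 9.67. Slc27a5 rose by 0.85 (adjusted p = 3.63e-06, limma), or at least 1.46-fold, since no day 5 array detected it.

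Slc39a12 rose by 1.05 to day 9 and by 1.06 after it, or by 1.17 and 0.98 without the dim array. Slc13a3 was at least 1.28-fold higher on day 9 than on day 5, a bound that includes the dim array, and rose by a further 1.06 to day 12.

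The other called rises were smaller. Slc27a1 rose by 0.79, Slc12a5 by 0.76, Slc24a3 by 0.75, Slc22a5 by 0.70, Slc4a4 by 0.66, Slc2a5 by 0.65, Slc12a4 and Slc22a17 by 0.63 each, Slc4a2 by 0.62, Slc24a6 by 0.37 and Slc8a3 by 0.35. They span calcium exchange (Slc8a3, Slc24a3, Slc24a6, whose current symbol is Slc8b1), carnitine uptake (Slc22a5) and fructose transport (Slc2a5, undetected on day 5 and at least 1.31-fold higher on day 12). The Slc2a5 bound includes day 12 control a, which did not detect it. Slc8a3 was detected on 1 of the 3 day 5 control arrays. Slc24a3 lay under the lowest detected level on day 5 control a (6.26 against 6.43). The rises of Slc8a3 and Slc24a3 thus start partly from background. Slc12a5 differed by 0.01 between days 5 and 9 and rose by 0.75 from day 9 to day 12 (adjusted p = 0.0163, limma). Without the dim array these steps were 0.31 (adjusted p = 0.0466, limma) and 0.47 (adjusted p = 0.00932).

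Of the 5 that fell, Slc20a1, the other phosphate cotransporter, went from 10.97, 10.80 and 11.13 to 10.45, 10.24 and 10.50, a change of -0.57 (adjusted p = 0.00112, limma). Its direction was opposite to that of Slc20a2. Slc27a3 fell by 0.47, Slc16a6 by 0.40 by its brighter probe, and the zinc importer Slc39a6 by 0.38. The dimmer Slc16a6 probe went the other way, by 0.12, and was not called. Slc16a3 fell by 0.30 to a level that was not detected, so no fold is given. Slc22a3 fell by 0.64 from day 9 to day 12 (adjusted p = 0.0303, limma), and by 0.89 without the dim array.

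Of the other members named for their brain role, Slc16a1, Slc2a3 and Slc39a10 were not called between any days of control cells, with changes from day 5 to day 12 of -0.02, 0.10 and 0.09. The 6 detected Slc30 zinc exporters were not called from day 5 to day 12. From day 5 to day 9, Slc30a5, which fills the early secretory pathway with zinc, was lower by 0.55 (adjusted p = 0.0398, limma), with levels of 9.69 and 9.39 on replicates a and c and 8.62 on the dim array. Without that array the change was -0.25 and was not called (adjusted p = 0.152). Astrocyte markers rose with culture time too: all 13 were called higher on day 12 than on day 5, by a median of 2.52. So were 8 of 9 oligodendrocyte lineage markers, against 11.1% of all probes. The part of these markers was not tested.

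In cells with the CHD5 shRNA, 5 transporters rose and 1 fell from day 5 to day 9, while 4.61% of all probes were called higher and 4.72% lower. From day 9 to day 12, 2 rose and 1 fell, against 0.957% and 0.415%. Quantile normalization gave 4 and 1 (169 and 110 of all 11079 probes) and median centring 1 and 1 (30 and 12). Slc39a12 rose in both steps, by 0.89 and 0.74 (adjusted p = 2.19e-04 and 0.00463, limma). Slc20a2, Slc27a1, Slc24a3 and Slc9a3r1 rose and the brighter Slc16a6 probe fell to day 9. Slc13a3 went from no detection on day 9 to detection on all 3 arrays of day 12, where it was at least 1.06-fold higher (adjusted p = 0.00319, limma). Slc22a3 fell by 0.75 (adjusted p = 0.0215, limma), and by 0.64 in control. The control fall includes the dim day 9 array, at 7.72 against 8.57 and 8.23 on replicates a and c, and was larger without it.

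**Figure D5:**
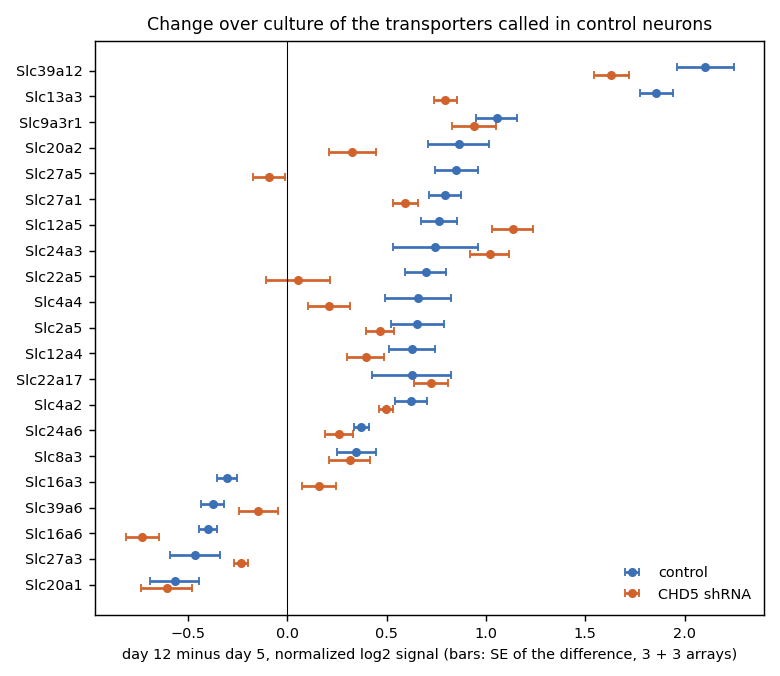
Change in normalized log2 signal from day 5 to day 12 (horizontal axis) for the 21 transporters called in control cells, blue for control and orange for CHD5 shRNA; points are differences of means and bars are the SE of the difference over 3 and 3 arrays. Slc13a3 (1.86 and 0.80) and Slc27a5 (0.85 and -0.09) were not detected on any day 5 array, so their points start from background signal.

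Side by side, the change from day 5 to day 12 in control and with the CHD5 shRNA was 2.10 and 1.63 for Slc39a12, 0.86 and 0.33 for Slc20a2, 0.66 and 0.21 for Slc4a4, and 0.76 and 1.13 for Slc12a5. Whether the shRNA difference itself changed between days was tested directly. From day 5 to day 12 the fitted term was called for 2 transporters, Slc13a3 at -1.06 (SE 0.12, adjusted p = 0.00108, limma) and Slc27a5 at -0.94 (SE 0.14, adjusted p = 0.00611, limma), where 0.153% of all probes were called in either direction. Neither probe was detected on any of the 6 day 5 arrays, and Slc27a5 on no CHD5 shRNA array of any day, so the day 5 difference is between background signals and these terms are not measured sizes of change. What was measured is that control cells went from no detection to detection on all 3 arrays of day 12, by at least 2.68-fold for Slc13a3 and at least 1.46-fold for Slc27a5. For Slc39a12, Slc20a2, Slc4a4 and Slc12a5 the change was not called (adjusted p = 0.503, 0.271, 0.716 and 0.985), which does not show that the arms changed alike.

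From day 5 to day 9 and from day 9 to day 12, limma called 0 transporters and 0% of all probes for a changed difference, with 4 transporters (7.27%) at an unadjusted p under 0.05 in each, against 7.3% of all probes for the first step and 2.36% for the other. Comparisons with control share the same control arrays as the control time course, so their values are set side by side and no agreement between them is read.

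The genes that serve the same pathways were read from a list of 55, of which 34 were detected. With the CHD5 shRNA 1 was lower and 1 higher on day 5, 3 were lower on day 9 and 4 on day 12. Over all probes, 0.126% were called lower and 0.0451% higher on day 5. The shares were 2.25% and 3.65% on day 9, and 3.24% and 2.23% on day 12. The pathway genes lower on day 12 included Atp1b2, a sodium pump beta subunit (-0.66, adjusted p = 0.0185, limma), Ca2, a cytosolic carbonic anhydrase (-0.51), and Mt1a, a zinc-binding metallothionein (-0.82). Mt1a was also lower on days 5 and 9, by 0.75 and 0.79 on the log2 scale. Ldhb, a lactate dehydrogenase subunit, was lower on day 9 (-0.67), and Txnip, an arrestin that holds glucose uptake down, was higher on day 5 (0.62). The monocarboxylate carrier chaperones Bsg and Emb were not called. In control cells 9 of the 34 rose and 5 fell from day 5 to day 12, against 11.1% and 12.5% of all probes. Among the rises were Ca2 by 1.80 and Atp1b2 by 1.73.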

How the data were processed

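The authors deposited signal intensities of Illumina Sentrix Rat Ref-12 BeadChips, each the mean brightness of the beads of a probe, exported from GenomeStudio 1.1.1 (per the labels) with no normalization and no background subtraction, and for each a deposited detection p-value against negative controls. From these, probes with a detection p of at most 0.02 on at least 1 array were kept (11079 of 22523), and their log2 signals were Z-transformed per array, as in the study's methods, then multiplied by the mean SD (1.79) and shifted to the mean of the arrays. Limma 3.58.1 in R 4.3.3 was fitted to 6 groups of 3 arrays, with 11 contrasts and Benjamini-Hochberg adjustment over all kept probes. The code was tested on simulated data. Replicate a was measured again on 6 arrays (r = 0.997 to 0.998), used as an alternative.

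Members and lists were chosen with earlier results of these data known. Genes named with values were those called in an shRNA contrast or for a change of its difference, the 5 largest called rises and falls of control day 12 against day 5, and 16 genes of known brain role; of several probes the brighter stands for the gene. Genes outside that rule were named after their values were seen. Of 105 members 104 matched a RefSeq symbol, and 6 have another current symbol. A probe undetected in a whole group gave a bound against the lowest signal of a detected probe. The number of arrays limits the precision. Replicate letters were taken to pair samples where same-lettered arrays deviated together by more than 0.1 in each pair. That held for CHD5 shRNA against control on day 5 (0.27, 0.17 and 0.38) and control day 12 against day 9 (0.14, 0.26 and 0.17). Slides were not given in the sources used here. Alternatives were quantile normalization, median centring, neqc, no detection filter, the repeat measurement, array weights, fits to the compared groups alone, replicate letters as a block and each array left out. The columns of the tables were all assigned to samples. Some genes on the lists are counted but not reported here by name.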

Additional observations from a re-analysis of the deposited data

Results flagged for a closer look

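The CHD5 shRNA difference was called as unlike on days 5 and 12 for Slc13a3 and Slc27a5. For Slc13a3 the fitted term was -1.06 (adjusted p = 0.00108, limma interaction term), and for Slc27a5 -0.94 (adjusted p = 0.00611, limma interaction term). Both probes were below detection on every day 5 array, where a difference could not have been measured, so whether the difference changed cannot be told from these values. On day 12 the arms differed by -1.12 for Slc13a3, with detection on all 6 arrays. The astrocyte marker list had median differences of -0.20 on day 5 and -0.83 on day 12, and its part was not tested.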

How the results depend on the processing

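Counts of called transporters are given here and in the next paragraph. A count without the share of all probes beside it describes the setting and cannot be read as a result about transporters. On day 9, CHD5 shRNA against control gave 5, and 9 with quantile normalization and 2 with median centring. It gave 2 without the detection filter (0.422% lower and 0.941% higher over all probes) and 0 in a fit to the compared groups alone (0% and 0%). On day 12 it gave 10 (9 lower, 1 higher), and 4 with median centring (all lower), 4 without the filter (3 and 1, against 0.835% and 0.675% of all probes), 21 in the compared groups alone (14 and 7, against 11.8% and 11.8%) and 24 with array weights (16 and 8, against 15.6% and 16.7%). Control day 9 against day 5 gave 12, and 7 without the filter and 3 in the compared groups alone. Control day 12 against day 9 gave 5, and 8 with quantile normalization, 3 with median centring, 8 with neqc and 0 in the compared groups alone. In CHD5 shRNA cells, day 9 against day 5 gave 6, and 12 in the compared groups alone and 21 with array weights, and day 12 against day 9 gave 3, and 5 with quantile normalization, 13 in the compared groups alone and 20 with array weights. The change of the difference from day 5 to day 12 gave 2, and 0 with median centring and 1 without the filter. A fit to the compared groups alone has fewer samples, and its counts were lower in some comparisons and higher in others. The cause of these shifts in count was not tested.

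Leaving out 1 array gave 0 to 0 calls on day 5, 2 to 10 on day 9 (10 without control a or b, 3 without CHD5 shRNA a and 2 without c) and 4 to 15 on day 12 (15 without day 9 control b, 4 without control a or CHD5 shRNA b). Control cells gave 10 to 26 for day 9 against day 5 and 2 to 14 for day 12 against day 9, each highest without day 9 control a and the latter lowest without day 12 control a or c, and 17 to 24 for day 12 against day 5. CHD5 shRNA cells gave 3 to 13 and 2 to 7 for the same steps, each highest without day 9 control b and the former lowest without day 9 CHD5 shRNA c. The changes of the difference gave 0 to 1 (days 5 to 9), 0 to 0 (days 9 to 12) and 2 to 4 (days 5 to 12). No transporter called in any of these comparisons turned its direction under the 30 alternatives run. With the replicate letter as a block over all days, the shRNA comparisons gave 0, 6 and 11 calls on days 5, 9 and 12, and with a block within each day 0, 7 and 11. The letters paired the samples on day 5 and for control day 12 against day 9, where the block changed no count (0 and 5). A probe dimmer than the lowest detected signal of its array has no measured level, and no difference below that signal can be seen.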
